A study of Mus musculus with 18 samples.

Results

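Il6 encodes interleukin-6, a cytokine secreted by adipocytes, fibroblasts and immune cells, and its RNA was followed here across 18 RNA sequencing libraries of 3T3-L1 adipocytes. The gene was found by position in a count table of 27473 gene models on mouse build mm9. It is the plus-strand gene model with the most exon bases in a window around the Il6 locus on chromosome 5, which is 1 gene model, uc008wuu.1. 3T3-L1 cells are mouse fibroblasts that turn into fat cells in culture when given adipogenic hormones. All cells were differentiated adipocytes at passage 15 that had been transduced with a lentivirus for 6 days, so the controls carry a virus too.

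The libraries form 6 groups of 3. Cells labelled 2D, for overexpression of Irf3, have EGFP vector cells as their control, and the meaning of 2D is not given in the labels. The other 4 groups are shIrf3+LPS (a short hairpin RNA against Irf3, then lipopolysaccharide), shIrf3 (the hairpin alone), shLuc+LPS (a control hairpin, then lipopolysaccharide) and shLuc (the control hairpin alone). Lipopolysaccharide (LPS) is a component of the outer membrane of Gram-negative bacteria. For the knockdown cells the labels give a further 6 days of LPS, with LPS in each change of medium. The LPS time of the control hairpin cells is not given, and neither is how long the cells without LPS were kept. An effect of LPS therefore cannot be told apart from one of longer culture, and the knockdown and control cells may not have had LPS for the same time. The labels do not state whether replicates are separate cultures, and all p-values then rest on a spread that may be technical.

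Interleukin-6 acts through its own receptor, Il6ra, and a shared signal transducer, Il6st, which activate Janus kinases and the transcription factor STAT3. LPS is sensed by Toll-like receptor 4. One of its adaptors, MyD88, leads to NF-kB and AP-1, which together with C/EBP factors are the best known activators of the Il6 promoter. Another adaptor, TRIF, leads to IRF3, a transcription factor known above all for switching on interferon beta and interferon-induced genes. Adipose tissue is a known source of circulating interleukin-6 in obesity. Messenger RNA of Il6 is short-lived and is kept low in resting cells.

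The gene model spans 30339701 to 30346521 on chromosome 5 (mm9, plus strand, 6821 bases) and lists 4 exons, not the 5 of the usual Il6 transcript. Its exons are 50, 240, 114 and 1977 bases long, 2381 bases in all. Of these 4 exon lengths 3, and of its 3 intron lengths 2, also occur among the 4 Il6 transcripts of GENCODE M21. That annotation is of build GRCm38, so only lengths were compared. Its last 3 exon lengths occur together in 1 of the 27473 gene models. In the GENCODE transcript of 5 exons that ends nearest, the stretch of the last exon of 1977 bases is split by an intron of 1226 bases. Reads from that intron were therefore counted as Il6, and that intron alone is 51.5% of the counted length. Another GENCODE transcript, of 4 exons, ends in an exon of 1977 bases. The second exon of the gene model, of 240 bases, is also longer than the 185 bases in the 5-exon transcripts. Part of their first intron may thus be counted too. Spliced and unspliced Il6 RNA cannot be told apart in these counts.

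The sequence before the start site is shown because NF-kB, AP-1 and C/EBP factors are best known to act on the Il6 promoter. The 250 bases directly before the RefSeq start of Il6 (chr5:30012864-30013113, GRCm38.p6, plus strand) are given 5′ to 3′, with the matches to the searched motifs in capitals.
Il6 promoter: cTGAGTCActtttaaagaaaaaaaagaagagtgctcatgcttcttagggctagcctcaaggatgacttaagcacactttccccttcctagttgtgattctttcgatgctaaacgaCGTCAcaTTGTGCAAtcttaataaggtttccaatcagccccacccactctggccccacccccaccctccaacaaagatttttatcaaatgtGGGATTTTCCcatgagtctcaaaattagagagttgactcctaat

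Each of 4 motifs was found 1 time when both strands were searched, and no match overlapped another. The AP-1 letters TGANTCA begin 249 bases before the start and occur in 6.75% of 32851 RefSeq promoter windows of the same length. The core of a cyclic AMP response element, TGACG, lies on the opposite strand at 135 to 131 bases before the start and occurs in 17.8% of windows. Next to it, at 128 to 121 bases, lies a C/EBP match on the opposite strand (TTGCNNAA, in 9.56% of windows). The NF-kB letters, GGG and TTTCC with any 2 bases between them, lie nearest the start, at 44 to 35 bases, and are the rarest of the 4, in 1.41% of windows. The letters searched for IRF factors, GAAA repeated after any 2 bases, are not in this window and occur in 2.98% of windows, and the TATA box letters TATAAA, found in 12.4%, are not in it either. These are matches of letters only and say nothing of which factor was bound in these cells. Distances hold for the RefSeq start used, and bases after it were not searched.

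Il6 RNA was scarce in every library. Its count ran from 10 to 105 reads among library totals of 22143302 to 34368259, which is 0.375 to 3.29 CPM (reads relative to library size) after scaling to library size with TMM factors over all 18 libraries. Per length, the mean was 1.14 ± 0.213 RPKM (SD, n = 3) in shLuc+LPS, the highest group, and 0.236 ± 0.0406 RPKM in shLuc, the lowest. A higher mean RPKM than that of Il6 was found for 40.0% of all gene models in shLuc+LPS and for 50.6% in shLuc. Of the length used for Il6, 51.5% is the last intron of the 5-exon form, so its RPKM may understate spliced RNA. With so few reads, counting error alone is wide. The 95% Poisson interval of the lowest library, shIrf3 replicate 3, ran from 0.180 to 0.690 CPM, and that of the highest, shLuc+LPS replicate 2, from 2.69 to 3.99 CPM.

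Mitochondrial gene models took 14.2% of all counts in shLuc replicate 1, but only 2.88% in replicate 2 of that group. These libraries had 0.641 and 0.592 CPM of Il6, close to each other, and 0.454 CPM was found in shLuc replicate 3. The table pairs none of its identifiers with gene symbols, and 0 of them occur in the name tables used here. No named gene other than Il6 was looked up by its position either. Irf3 itself, markers of adipocytes, fibroblasts or macrophages, and other genes of the interleukin-6 pathway were therefore not analysed here. Whether the hairpin lowered Irf3 is thus not checked by these values, and in bulk RNA fewer cells of a type and less RNA per cell cannot be told apart.

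**Figure D1:**
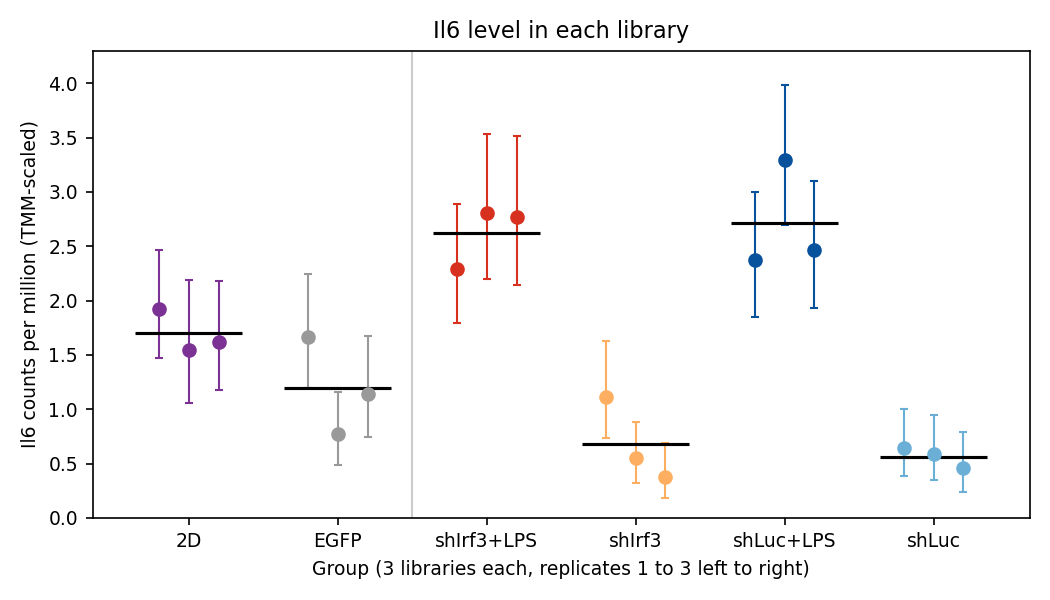
Il6 level in CPM in each of the 18 libraries, by group, with replicates 1 to 3 from left to right. Points are libraries with 95% Poisson intervals, which cover counting error only, and lines are group means. The 6 libraries with LPS lie at 2.29 CPM or above, and the 6 other hairpin libraries at 1.12 CPM or below.

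In the Irf3 knockdown cells, Il6 was higher with LPS. The 3 shIrf3+LPS libraries had 72, 73 and 67 reads, or 2.29, 2.81 and 2.77 CPM, against 27, 17 and 10 reads, or 1.12, 0.550 and 0.375 CPM, in shIrf3. Every shIrf3+LPS library lay above every shIrf3 library, although shIrf3 replicate 1 stood well above the other libraries of its group. The means were 2.62 ± 0.287 CPM in shIrf3+LPS and 0.680 ± 0.387 CPM in shIrf3 (SD, n = 3 each). The fitted log2 fold change was 1.97 ± 0.28 (SE), a 3.92-fold difference with a 95% interval from 2.59 to 5.94, and edgeR's quasi-likelihood test gave an adjusted p of 0.000229 over 14970 gene models. In this comparison 8.01% of the gene models tested were called at an adjusted p under 0.05, and 4.17% of those tested were called as higher with LPS. Of the 624 called as higher, 66 had a larger log2 fold change than Il6. An exact permutation test of the CPM values alone gave a two-sided p of 0.10, the smallest that 3 libraries against 3 allow.

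In the control hairpin cells, Il6 was also higher with LPS. The shLuc+LPS libraries had 70, 105 and 73 reads, or 2.38, 3.29 and 2.47 CPM, against 19, 17 and 12 reads, or 0.641, 0.592 and 0.454 CPM, in shLuc. These groups do not overlap either. Means were 2.71 ± 0.506 CPM in shLuc+LPS and 0.562 ± 0.0967 CPM in shLuc (SD, n = 3 each). The log2 fold change was 2.26 ± 0.28 (SE), a 4.80-fold difference (95% interval 3.16 to 7.29, edgeR adjusted p = 4.99e-05). Of the 14970 gene models tested, 8.72% were called, and 4.27% of those tested were called as higher. Among the 639 called as higher the median log2 fold change was 0.56, and 45 of them had a larger one than Il6. The exact permutation test again gave 0.10, the smallest it can give.

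The next comparison asks whether the difference with LPS depended on the hairpin. The log2 fold change with LPS was 1.97 in shIrf3 cells and 2.26 in shLuc cells, a difference of -0.29 with a 95% interval from -1.19 to 0.60 (edgeR adjusted p = 0.997). The ratio of the folds, shIrf3 over shLuc, had an interval from 0.439 to 1.52. The mean with LPS was higher than that without by 1.94 ± 0.278 CPM in shIrf3 cells and by 2.15 ± 0.297 CPM in shLuc cells (SE from the spread of the libraries), a difference of -0.209 ± 0.407. The interval holds both no difference and a fold with LPS in shIrf3 cells of 0.439 times that in shLuc cells. For this test 0 of 14970 gene models were called by edgeR (0%), and 848 (5.66%) had an unadjusted edgeR p under 0.05. DESeq2 called 15 and limma-voom 0. Without shIrf3 replicate 1, the library with the most Il6 in its group, the difference turned to 0.21 and was not called.

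Knockdown was also compared with the control hairpin at each state, where the LPS time of the control cells is not given. With LPS, Il6 averaged 2.62 CPM in shIrf3+LPS and 2.71 CPM in shLuc+LPS, and the ranges overlapped. The log2 fold change was -0.07 ± 0.23 (SE), with a 95% interval of the fold from 0.683 to 1.33 (edgeR adjusted p = 0.913), where 8.20% of gene models were called. It turned to 0.03 without shIrf3+LPS replicate 1 and to 0.10 without shLuc+LPS replicate 2. Without LPS, Il6 averaged 0.680 CPM in shIrf3 and 0.562 CPM in shLuc, with the lowest and the highest of these 6 libraries both in shIrf3. The log2 fold change was 0.23 ± 0.36 (SE), with an interval of the fold from 0.694 to 1.97 (edgeR adjusted p = 0.763), where 8.56% of gene models were called. It turned to -0.28 without shIrf3 replicate 1. Neither comparison called Il6, and neither interval excludes no change.

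In the overexpression arm, the 2D libraries had 61, 32 and 43 reads, or 1.92, 1.55 and 1.62 CPM, against 42, 23 and 26 reads, or 1.66, 0.771 and 1.14 CPM, in EGFP. Every 2D library lay above EGFP replicates 2 and 3, and EGFP replicate 1 lay within the 2D range. The means were 1.70 ± 0.198 CPM in 2D and 1.19 ± 0.447 CPM in EGFP (SD, n = 3 each). The log2 fold change was 0.51 ± 0.30 (SE), with a 95% interval of the fold from 0.884 to 2.28, and Il6 was not called (edgeR adjusted p = 0.658). Of 13931 gene models tested, 1.45% were called. The estimate moved with single EGFP libraries, to 0.84 without EGFP replicate 1 (edgeR adjusted p = 0.346) and to 0.25 without EGFP replicate 2 (edgeR adjusted p = 0.9995).

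**Figure D2:**
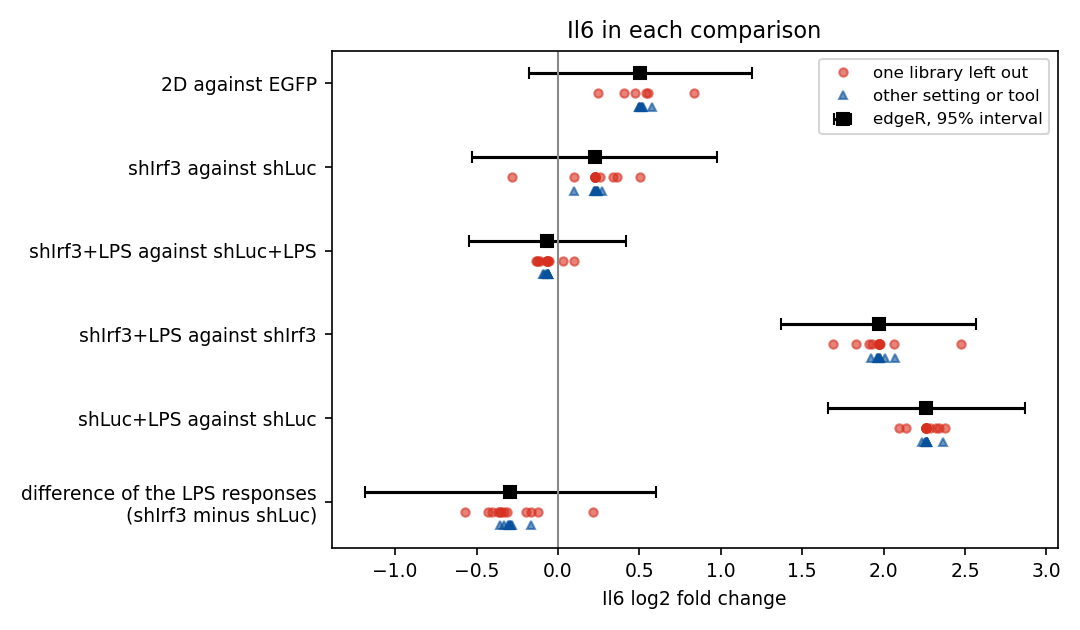
Il6 log2 fold change in each of the 6 comparisons. Squares are the edgeR estimates with 95% intervals, circles the estimates with 1 library left out, and triangles those under other settings or tools. The intervals of both LPS comparisons stay at 1.37 or above, while the intervals of the other 4 include 0.

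Ordered by mean level, the groups ran from shLuc+LPS (2.71 CPM) through shIrf3+LPS (2.62 CPM), 2D (1.70 CPM), EGFP (1.19 CPM) and shIrf3 (0.680 CPM) to shLuc (0.562 CPM). Of the 5 pairs of neighbours in this order, only shIrf3+LPS and 2D had ranges that do not overlap. In the other 4 pairs the ranges overlapped. The differences of means were 0.506 CPM between 2D and EGFP and 0.511 CPM between EGFP and shIrf3, each above the SD of either group. The other two pairs, shIrf3+LPS with shLuc+LPS and shIrf3 with shLuc, differed by 0.0906 and 0.118 CPM, less than the larger SD of each pair. Across the arms, the EGFP mean was 2.12-fold that of shLuc without overlap of their libraries, although both groups are vector controls without LPS. No test was made between arms, whose vectors differ.

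The spread of Il6 within groups was unequal. The chi-square of the 3 counts against the library sizes was 0.629 per degree of freedom in 2D, 4.66 in EGFP, 0.925 in shIrf3+LPS, 5.72 in shIrf3, 2.91 in shLuc+LPS and 0.454 in shLuc, where about 1 is the level of counting error alone. The coefficient of variation was 56.9% in shIrf3 and 37.5% in EGFP, against 23.6% and 18.2% from counting error. In shLuc+LPS it was 18.7% against 11.0% from counting error. In 2D (11.7%), shIrf3+LPS (11.0%) and shLuc (17.2%) it was below the counting error of 14.9%, 11.9% and 25.0%. Each of the 6 comparisons has at least 1 of EGFP, shIrf3 and shLuc+LPS in it, the 3 groups whose coefficient of variation was above counting error. The chi-square test gave p = 0.00949 in EGFP, 0.00327 in shIrf3 and 0.0543 in shLuc+LPS. Excess spread in shLuc+LPS is thus not shown at the threshold of 0.05.

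No gene model of the table overlaps Il6 on either strand, so its reads were not shared with an antisense model. Within 500 kb on either side lie 17 other gene models, of which 9 passed the filter on low counts in the hairpin arm. With LPS, 0 of the 9 were called by edgeR, DESeq2 or limma-voom in either hairpin, and an unadjusted edgeR p under 0.05 was found for 3 in shIrf3 cells and 0 in shLuc cells. Over all 14970 gene models tested, the share with such an unadjusted p was 21.9% in shIrf3 cells and 20.9% in shLuc cells. Of all gene models tested, edgeR called 8.01% in shIrf3 cells and 8.72% in shLuc cells. Their log2 fold changes with LPS ran from -0.10 to 1.16 in shIrf3 cells and from -0.18 to 0.31 in shLuc cells, all below those of Il6. The largest was that of the nearest upstream gene model, which lies on the minus strand, 5400 bases before Il6 (30213268 to 30334301, 4 exons). It had 0.382 to 0.615 CPM in shIrf3+LPS against 0.150 to 0.259 CPM in shIrf3, without overlap but not called (edgeR adjusted p = 0.0808), from 38 and 17 reads in all. In shLuc+LPS it had 0.340 to 0.439 CPM, against 0.270 to 0.454 CPM in shLuc.

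**Figure D3:**
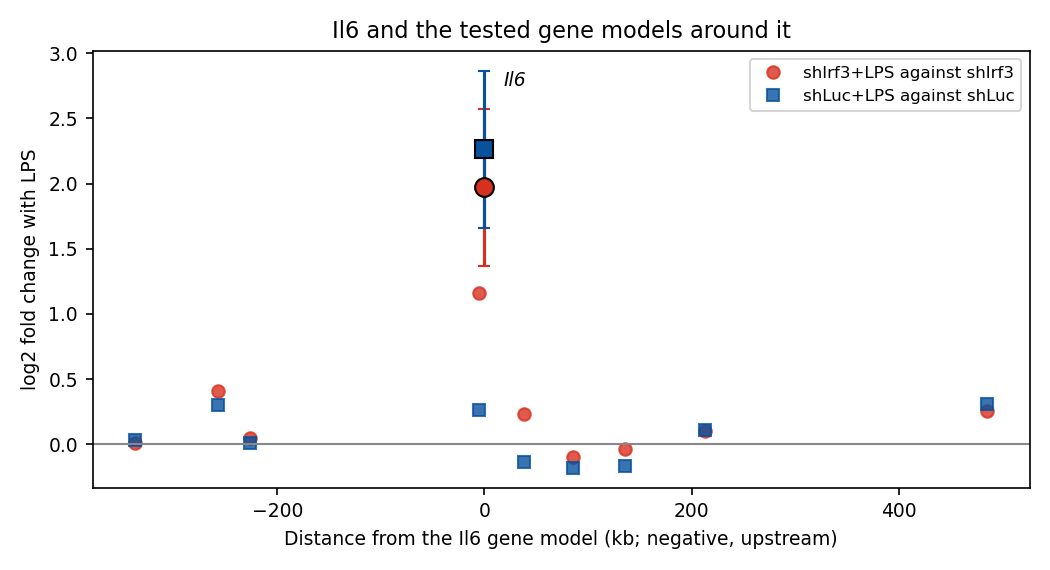
Log2 fold change with LPS of Il6 (outlined symbols with 95% intervals, at 0 kb) and of the 9 tested gene models within 500 kb, by distance from the Il6 gene model in kb. Circles are shIrf3 cells and squares shLuc cells. Il6 stands at 1.97 and 2.26, and the highest neighbour at 1.16.

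To find the gene models whose pattern was most like that of Il6, Pearson's r of log2 CPM was taken over the 18 libraries against each of 13097 gene models whose group mean reached 1 CPM somewhere. The libraries share their treatment groups, so r is a description and mostly reflects differences between groups. Of the 13097, 8 had an r above 0.9 and the median r was -0.01. The highest were uc007kmp.1 (r = 0.940, Spearman's rho = 0.934) and uc007kmq.2 (r = 0.940, rho = 0.928). Without the 2 libraries farthest from the median of Il6, r was 0.934 and 0.941. Over the 12 hairpin libraries alone, 94 gene models had an r above 0.9, and these 2 were 9th (r = 0.952) and 22nd (r = 0.944) in the order of r. By Spearman's rho over 18 libraries they were 1st and 4th. For deviations from the group means alone, r was 0.557 and 0.609. Both lie on the plus strand of chromosome 11, at 81849079 to 81850954 and 81859214 to 81861025, with 3 exons each and 8260 bases between them.

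These gene models were far more abundant than Il6, with 162 and 88.0 RPKM in shLuc+LPS. They were picked by r with Il6 over these same libraries, in which Il6 was higher with LPS. Their differences with LPS follow in part from that choice and are no separate support. The first, uc007kmp.1, had 154 to 179 CPM in shIrf3+LPS against 20.7 to 25.6 CPM in shIrf3, and 126 to 136 CPM in shLuc+LPS against 22.0 to 31.3 CPM in shLuc. Its log2 fold change with LPS was 2.87 in shIrf3 cells (edgeR adjusted p = 3.00e-10) and 2.36 in shLuc cells (edgeR adjusted p = 2.79e-09). For uc007kmq.2 the LPS values were 2.16 (edgeR adjusted p = 4.21e-11) and 1.87 (edgeR adjusted p = 3.16e-10). In shIrf3+LPS against shLuc+LPS, uc007kmq.2 was higher by 0.45 on the log2 scale (edgeR adjusted p = 0.00294). For uc007kmp.1 the value was 0.34 (edgeR adjusted p = 0.0686) and for Il6 it was -0.07, both uncalled. Differences between these gene models were not tested, and the LPS time of the control cells is not given. In the overexpression arm, uc007kmp.1 had 69.0 ± 12.6 CPM in 2D and 50.3 ± 9.53 CPM in EGFP, and uc007kmq.2 had 59.3 ± 7.44 CPM in 2D and 33.7 ± 7.41 CPM in EGFP (SD, n = 3 each). Neither was called for 2D against EGFP.

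**Figure D4:**
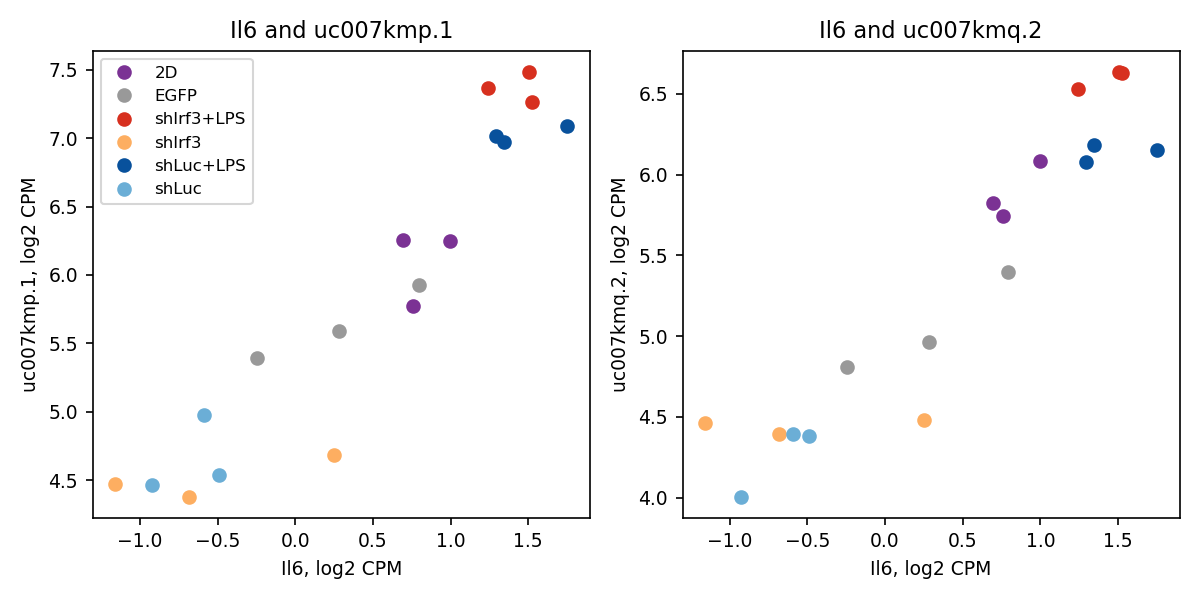
Log2 CPM of uc007kmp.1 (left panel) and uc007kmq.2 (right panel) against log2 CPM of Il6 in the 18 libraries, coloured by group, with a prior count of 2. LPS libraries lie at the upper right, shIrf3 and shLuc libraries at the lower left and the 2D and EGFP libraries between them, with shIrf3 replicate 1 to the right of its group.

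Over the 18 libraries, the most opposite patterns were weaker. The 2 lowest values of r were -0.855 (uc007jhn.1, chromosome 11, 61298946 to 61302206) and -0.853 (uc009ttn.1, chromosome X, 91780813 to 91787413), and no gene model was below -0.9. Over the 12 hairpin libraries alone, r was -0.914 for uc007jhn.1, the 13th lowest, and -0.868 for uc009ttn.1, the 59th lowest. The log2 fold change of uc007jhn.1 with LPS was -1.94 in shIrf3 cells (edgeR adjusted p = 0.000323) and -1.81 in shLuc cells (edgeR adjusted p = 0.000597). Its levels were low too, at 0.688 ± 0.0176 CPM in shIrf3+LPS against 2.66 ± 0.0430 CPM in shIrf3, and at 0.628 ± 0.107 CPM in shLuc+LPS against 2.24 ± 1.04 CPM in shLuc (SD, n = 3 each). The change of uc009ttn.1 was small, at -0.23 in shIrf3 cells (edgeR adjusted p = 0.0293) and -0.20 in shLuc cells (edgeR adjusted p = 0.0508). Both gene models were picked by r over these same libraries, so lower values with LPS follow in part from that choice.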

How the data were processed

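Starting from 70 ng of total RNA, the submitters depleted ribosomal RNA and used a TruSeq RNA kit, per the labels' protocols. That kit does not mark strand. TopHat2 2.0.14 and featureCounts 1.4.6 on build mm9 are named in the submitters' processing notes, without settings. The authors deposited raw counts of reads for each gene model, 1 column a library, with no normalization. The exon length is per the file headers. Groups came from sample titles.

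Il6 was tested within fits of all gene models, using glmQLFTest of edgeR 4.0.16 (R 4.3.3) after filterByExpr and TMM scaling, and Benjamini-Hochberg adjustment. The 2D and EGFP libraries were fitted together (6 libraries), and the 4 hairpin groups in a second fit (12 libraries). The biological coefficients of variation were 0.171 and 0.0910. Standard errors are the size of the log2 fold change over the square root of F. Only the edgeR steps were tested on simulated counts, for 2D against EGFP and for LPS in shLuc cells. Replicates always differed beyond sampling noise (chi-square per degree of freedom 3.38 to 349.9). The gene was chosen, and its rule and lists written, with earlier results of these data known. Besides Il6, the 2 gene models with the highest and the 2 with the lowest r were named. Lists by symbol could not be used. As alternatives, DESeq2 1.42.0, limma-voom (limma 3.58.1), other scalings and filters, the replicate block, other sets of libraries and each library left out were run. Intervals of levels cover counting error only.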

Additional observations from a re-analysis of the deposited data

How the results depend on the processing

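Both LPS calls of Il6 held in all 22 alternatives run for each. Over the settings that kept every library of the groups compared, the log2 fold change ran from 1.92 to 2.07 in shIrf3 cells and from 2.24 to 2.37 in shLuc cells. With 1 library left out it ran from 1.69 to 2.48 in shIrf3 cells and from 2.09 to 2.38 in shLuc cells. The largest adjusted p over all alternatives was 0.00282 in shIrf3 cells and 0.000742 in shLuc cells. The other 4 comparisons stayed uncalled in every alternative that gave an adjusted p, and DESeq2 gave none for the interaction. With 1 library left out they ran from 0.25 to 0.84 (2D against EGFP), from -0.28 to 0.51 (shIrf3 against shLuc), from -0.14 to 0.10 (shIrf3+LPS against shLuc+LPS, positive at 0.03 and 0.10) and from -0.57 to 0.21 (interaction). The cause of these turns was not tested. The sign of shIrf3 against shLuc and of the interaction turned without shIrf3 replicate 1, and that of shIrf3+LPS against shLuc+LPS without shIrf3+LPS replicate 1 or shLuc+LPS replicate 2.

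Deviations of same-numbered replicates from their group means had correlations from -0.26 to 0.30. Differently numbered replicates were not compared, so these values cannot show whether the numbers pair the libraries. With the replicate number as a block, Il6 was at 1.98 for LPS in shIrf3 cells and at 2.26 for LPS in shLuc cells, and no Il6 call changed. No group mean of Il6 moved by more than 1 SD under another scaling. Likeness to Il6 moved with the libraries used: 8 gene models had an r above 0.9 over 18 libraries and 94 over the 12 hairpin libraries. The r of uc007jhn.1 was -0.914 over the 12 hairpin libraries, against -0.855 over 18.

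Counts of called gene models moved far more than Il6. For 2D against EGFP they ran from 5 to 1021 around 202, for shIrf3 against shLuc from 386 to 2744 around 1281, for shIrf3+LPS against shLuc+LPS from 378 to 2848 around 1228, for LPS in shIrf3 cells from 621 to 2890 around 1199, for LPS in shLuc cells from 668 to 2132 around 1305, and for the interaction from 0 to 16. Il6 had 10 to 105 reads per library, and its coefficient of variation in EGFP, shIrf3 and shLuc+LPS was above that of counting error. How much depth and replicate spread each limit the uncalled comparisons was not tested.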
